A study of Mus musculus with 4 samples.

Results

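The genes described here are 10 components of canonical Wnt signal transduction, comprising the co-activator Ctnnb1 (β-catenin), the TCF/LEF transcription factor genes Lef1, Tcf7, Tcf7l1 and Tcf7l2, the destruction complex genes Axin1, Axin2 and Apc, and the feedback inhibitors Nkd1 and Nkd2. They were chosen by name out of 21938 protein-coding mouse genes, and their open chromatin was read from ATAC-seq, in which the Tn5 transposase inserts adapters where DNA is accessible. Nuclei came from hippocampi dissected on postnatal day 0, with 50000 nuclei per reaction. The cKO group (genotype Kdm2bEmx1-delta-CxxC, 2 libraries) lacks the CxxC zinc finger of KDM2B, through which this protein binds CpG-rich DNA. Emx1-Cre deletes the encoding exon in the dorsal telencephalon, so cells of other origin in the same tissue keep it. The Ctrl group (2 libraries) is given as Kdm2bfl/+ or Kdm2bfl/fl, and the labels do not say which library had which. Peak names in the deposited lists carry short strings that may name a genotype, and these were not used. The sample titles and the protocol name hippocampus, whereas another label field names neural progenitor cells. The libraries are called Ctrl1, Ctrl2, cKO1 and cKO2 by group and replicate number. No label says whether replicates came from separate animals or litters, so the spread between them may be partly technical.

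In canonical Wnt signaling, a destruction complex built on the scaffold proteins AXIN and APC marks β-catenin for degradation, and a Wnt signal at the cell surface halts this. Stabilized β-catenin enters the nucleus and binds TCF/LEF proteins, which recognize a short DNA element and recruit β-catenin to target genes. Among those targets are Axin2, Nkd1 and often Lef1, so that the pathway adjusts its own strength, and in the embryo the signal is required for the hippocampus to form from the medial wall of the cortex.

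The 4 libraries differed strongly, and this touches every result. MACS2 called 46389 peaks in Ctrl1, 7037 in Ctrl2, 21404 in cKO1 and 44535 in cKO2. In Ctrl2, 60.6% of the peaks lay mostly in repeat-masked sequence, against 5.37% to 14.7% in the other libraries. Mean genome coverage was not given and was estimated as the lowest background recovered from fold enrichment and p-value at any peak of a list. By this estimate it was 1.62 fragments in Ctrl1, 3.46 in Ctrl2, 2.07 in cKO1 and 1.81 in cKO2. It was thus highest in the library with the fewest peaks. The promoters of 10 dorsal telencephalon and hippocampus genes carried a peak in 9, 0, 6 and 10 cases in the same order of libraries. The shares of all protein-coding genes with a promoter peak were 58.0%, 8.27%, 40.3% and 55.9%. With so few promoter peaks in Ctrl2, its 0 cases do not show a lack particular to these genes. Of 17 markers of microglia, vessels, interneurons and the oligodendrocyte lineage, peaks were found for 6, 0, 1 and 3, next to the same shares. Genes of unrelated tissues had none. The promoter of Kdm2b itself stood at percentiles of 68.5, 0, 74.9 and 70.7 in the same order, which does not check the deletion, since the deleted exon lies elsewhere in the gene.

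A promoter peak was a peak with its summit within 2 kb of an annotated transcription start site (TSS) of the gene. Of the 10 Wnt components, 9 had such a peak in Ctrl1, 2 in Ctrl2, 5 in cKO1 and 9 in cKO2. Over all protein-coding genes, the shares with a promoter peak were 58.0%, 8.27%, 40.3% and 55.9% in the same order. All 10 components have at least 1 CpG-rich TSS (a 500-bp window with at least 55% GC and an observed over expected CpG ratio of at least 0.65). Over the 10550 genes that share this property the shares were 90.9%, 14.4%, 67.6% and 88.5%. The components therefore followed the CpG-rich genes closely in Ctrl1 and cKO2, and cKO1 had peaks at 5 where the share of CpG-rich genes was 67.6%. Lef1, Tcf7l2, Nkd1 and Nkd2 were the genes with a peak in Ctrl1 and cKO2 and none in the other pair of libraries. With only peaks of a −log10 q-value of at least 5, the counts were 9, 0, 4 and 6, and Lef1, Nkd1 and Nkd2 lost their peak in cKO2. No share over all genes is given at this threshold, so the drop cannot be read as particular to the components. In bulk nuclei, fewer cells with an open promoter and a less open promoter in each cell cannot be told apart.

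**Figure D1:**
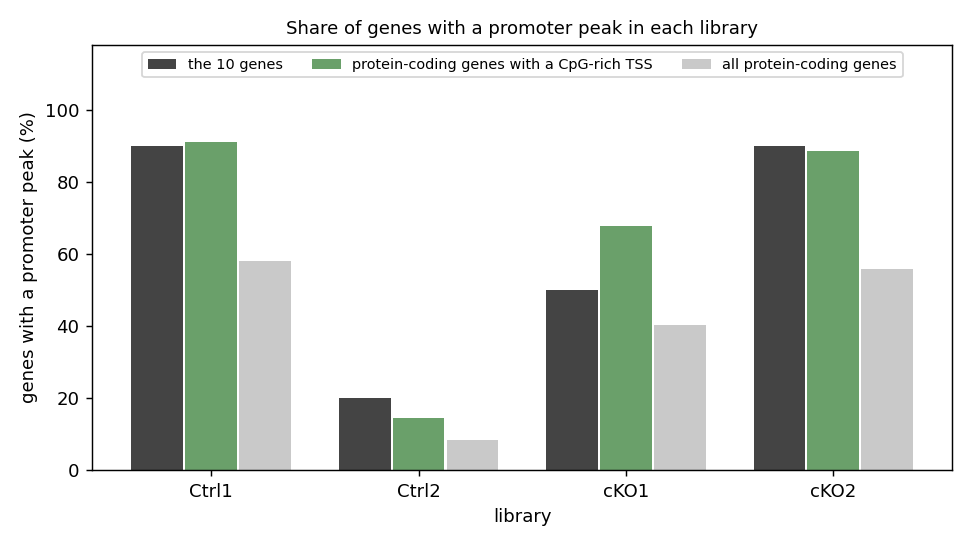
Bars give the percentage of genes with a promoter peak (y axis) in each library (x axis) for the 10 Wnt components, for protein-coding genes with a CpG-rich TSS and for all protein-coding genes. The share moves with the library in all 3 sets, from 58.0% of all genes in Ctrl1 down to 8.27% in Ctrl2.

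Each promoter is described below by 2 measures. The promoter percentile is how many of 100 protein-coding genes have a weaker best promoter peak in the same library, judged by its −log10 p-value. A gene without a promoter peak has a percentile of 0. Since few genes had peaks in Ctrl2, any gene with a peak there stood at a percentile of at least 91.7, whereas this floor was 42.0 in Ctrl1, 59.7 in cKO1 and 44.1 in cKO2. The scaled depth is the number of fragments at the summit over the estimated genome-wide mean of the same library, so 1 is that estimated mean.

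Ctnnb1, which encodes β-catenin, had one of the most open promoters of the group. Its peak lay at chr9:120933236-120933583 (mm10), with the summit 69 bp from the TSS in Ctrl1. The scaled depth was 33.3 in Ctrl1, 11.6 in cKO1 and 22.7 in cKO2, and no peak was called in Ctrl2. The percentiles were 81.5, 80.3 and 76.1 in the libraries with a peak. Both cKO libraries thus lay below Ctrl1 and above the second Ctrl library, and the groups overlapped. The promoter was also the only open region near Ctnnb1 that more than 1 library held, as the other one in the gene body and 50 kb on either side was an intronic site of the neighbouring gene Ulk4 seen in Ctrl1.

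Lef1 encodes the TCF/LEF factor that is itself induced by Wnt signals in many tissues. The gene spans chr3:131110471-131224356 on the plus strand. No library had a peak summit at its CpG-rich start site, position 131110471. The nearest was that of the Ctrl1 promoter peak, chr3:131111815-131112486, 1618 bp inside the gene, within the first intron (exon 1 ends at 131111678), 708 bp before the start of a shorter Lef1 transcript and 1 bp from the start of the antisense gene Gm43352. In cKO2 the summit lay 1928 bp inside the gene. ATAC-seq has no strand, so this opening cannot be assigned to one of the transcripts.

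The sequences below show a stretch before the gene and the open intronic site, with the first taken from the RefSeq promoter table (GRCm38.p6, plus strand, chr3:131110047-131110296, the 250 bases before the first RefSeq start) and the second from the genome around the summit of the peak in Ctrl1 (chr3:131111939-131112238, plus strand). Capitals mark CpG dinucleotides in the first and, in the second, a match to the TCF/LEF core motif, searched as CTTTGAT or CTTTGTT on both strands. The match lies on the minus strand, 1539 bp after the CpG-rich start. It lay inside the peak of Ctrl1 but outside that of cKO2, chr3:131112076-131112472.
Lef1 upstream: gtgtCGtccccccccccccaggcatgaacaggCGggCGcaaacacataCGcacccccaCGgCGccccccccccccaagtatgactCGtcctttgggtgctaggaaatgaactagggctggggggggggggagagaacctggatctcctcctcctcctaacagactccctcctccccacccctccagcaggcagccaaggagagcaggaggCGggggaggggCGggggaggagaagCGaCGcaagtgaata
Lef1 intron 1 summit: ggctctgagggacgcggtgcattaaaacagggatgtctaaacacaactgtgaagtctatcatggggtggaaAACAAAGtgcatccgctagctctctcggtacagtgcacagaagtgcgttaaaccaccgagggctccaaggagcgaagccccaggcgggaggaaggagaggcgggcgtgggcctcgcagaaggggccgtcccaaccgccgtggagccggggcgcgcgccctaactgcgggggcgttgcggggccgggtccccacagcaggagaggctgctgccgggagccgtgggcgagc

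The upstream stretch held 11 CpGs in 250 bases and the open intronic window 25 in 300 bases. The 500 bases centred on the CpG-rich start itself, which had no summit, held 45 CpGs at 67.6% GC, so this start was not poorer in CpGs than the open window.

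The Lef1 intronic peak had a scaled depth of 12.3 in Ctrl1 and 8.86 in cKO2, and it was not called in Ctrl2 or cKO1. The matching percentiles, 49.8 and 47.2, were near the floor of those libraries. Each group thus had one library with the peak and one without. A CpG-dense region 4.4 kb upstream of Lef1 was more open and more widely shared. This region, chr3:131105828-131106455, held 29 CpGs in the 300 bases around its summit and had scaled depths of 18.5 in Ctrl1, 6.27 in cKO1 and 19.4 in cKO2.

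Tcf7, which encodes TCF1, known above all from T cells, was the single member without a promoter peak in any list, although one of its start sites is CpG-rich with 65 CpGs in 500 bases. A depth below the weakest peak of a list could have gone uncalled, and those weakest peaks had scaled depths of 4.32 in Ctrl1, 3.46 in Ctrl2, 4.34 in cKO1 and 4.43 in cKO2. Tcf7 also had only 2 open regions within 50 kb, of which 1 was the promoter of another gene.

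Tcf7l1 encodes TCF3, a factor that mostly acts as a repressor of Wnt targets. Its promoter peak at chr6:72789044-72789695 (minus-strand gene, summit 255 bp upstream of the start) had scaled depths of 20.3 in Ctrl1, 5.78 in cKO1 and 14.9 in cKO2. The percentiles were 67.7, 62.6 and 64.6, and Ctrl2 again had no peak. Both cKO values lay below that of Ctrl1 on either measure.

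Inside Tcf7l1, 77.5 kb from its start, an intronic region held by 3 libraries was the only open site outside promoters that combined a TCF/LEF core motif with presence in more than 2 lists. Its scaled depths were low and close together, at 9.86 in Ctrl1, 6.75 in cKO1 and 7.20 in cKO2. It is printed here for that motif, in capitals, on the strand of the gene (minus strand, chr6:72711632-72711931).
Tcf7l1 intron: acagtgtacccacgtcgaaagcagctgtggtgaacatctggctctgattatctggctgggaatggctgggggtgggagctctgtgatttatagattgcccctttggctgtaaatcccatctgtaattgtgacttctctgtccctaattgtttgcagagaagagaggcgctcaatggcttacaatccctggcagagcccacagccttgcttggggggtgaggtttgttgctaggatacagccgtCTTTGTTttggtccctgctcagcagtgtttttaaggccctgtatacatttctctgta

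This window held 4 CpGs, against a median of 34 in the components' own promoter regions.

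Tcf7l2 encodes TCF4, a TCF factor of the developing brain and the intestine. Its promoter peak at chr19:55741328-55741867 was called in 2 lists, with scaled depths of 14.2 in Ctrl1 and 12.2 in cKO2. The percentiles of 57.9 and 59.1 made it the single component that ranked higher in cKO2 than in Ctrl1. An intronic region at chr19:55825882-55826548, 84.4 kb from the start, was deeper than the promoter, with scaled depths of 20.3 in Ctrl1, 9.64 in cKO1 and 18.3 in cKO2. So in cKO1 this gene kept an open intron without a called promoter.

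**Figure D2:**
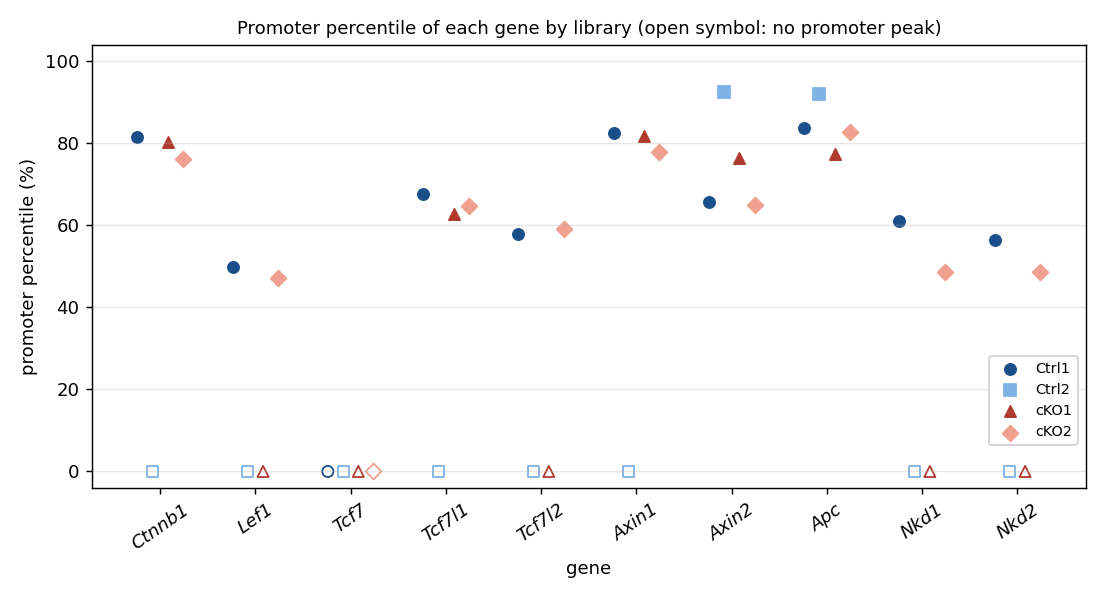
The promoter percentile (y axis, %) of each of the 10 genes (x axis) is plotted for each library by colour and shape, and open symbols at 0 mark genes without a promoter peak. Ctrl2 holds either 0 or values above 91, and Apc alone has both cKO values below both Ctrl values, a pattern of 2.80% of the genes tested. The Ctrl2 value of Apc comes from another promoter of the gene than its values in the other libraries.

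Axin1 encodes the ubiquitously used scaffold of the destruction complex. Its promoter peak at chr17:26138342-26139300 covered the CpG-rich starts of the gene and had scaled depths of 35.1 in Ctrl1, 11.6 in cKO1 and 26.6 in cKO2, with percentiles of 82.4, 81.8 and 77.8. Ctrl2 lacked the peak, and both cKO libraries were lower than Ctrl1. All other open regions in the 157 kb around Axin1 were promoters of its neighbours.

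Axin2, the scaffold gene that Wnt signals induce and that is widely used as a readout of the pathway, was the only component with a peak at its main promoter in all 4 libraries. The peak of Ctrl1 lay at chr11:108920137-108921090 and spanned the TSS at 108920349. The scaled depth was 25.3 in Ctrl1, 5.20 in Ctrl2, 11.6 in cKO1 and 19.4 in cKO2. Both cKO values fell between the Ctrl values. The cKO mean was 15.5 ± 5.52 and the Ctrl mean 15.2 ± 14.2 (SD, n = 2 libraries each), a difference of 0.236 (two-sided exact permutation test, p = 1.0). The percentiles were 65.7, 92.6, 76.4 and 65.0, and here too the groups overlapped. The Ctrl2 peak was weak, with a −log10 q-value of 2.73, and it was lost when only peaks of at least 5 were kept, whereas with lists of equal size the Axin2 peak stayed in Ctrl2 only.

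The Axin2 promoter is shown because its region was called in every list. The peak of Ctrl2, chr11:108920454-108920750, began downstream of both stretches printed here, which lay, in whole or for the most part, in the peaks of the other libraries. The first line gives the part of the peak upstream of the TSS (mm10, plus strand, chr11:108920137-108920348) with CpGs in capitals, and the second a 30-base site in the 5′ untranslated part of exon 1 (chr11:108920416-108920445) with the TCF/LEF core motif in capitals, 78 bp after the TSS.
Axin2 upstream: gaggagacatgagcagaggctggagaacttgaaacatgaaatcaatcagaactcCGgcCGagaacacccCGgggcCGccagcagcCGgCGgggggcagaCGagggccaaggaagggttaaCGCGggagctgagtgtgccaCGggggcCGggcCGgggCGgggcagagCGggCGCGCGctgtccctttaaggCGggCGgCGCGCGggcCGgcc
Axin2 motif site: agccggctgcgCTTTGATaaggtcctggca

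The upstream part held 23 CpGs in 212 bases with 70.8% GC. A further 2 regions of the Axin2 locus outside promoters were held by 3 lists, namely one 18.5 kb upstream at chr11:108901617-108902067 and one in an intron at chr11:108935039-108935655. The upstream region had scaled depths of 15.4 in Ctrl1, 6.75 in cKO1 and 18.8 in cKO2, so that cKO2 exceeded Ctrl1 there, unlike at the promoter. At the intronic region the values were 14.2, 7.23 and 11.1.

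Apc, the second scaffold of the destruction complex, had the deepest promoter of the group in Ctrl1 and cKO2. The peak at its CpG-rich start (chr18:34220576-34221321) had scaled depths of 37.6 in Ctrl1, 10.6 in cKO1 and 28.2 in cKO2, and was not called in Ctrl2. A second promoter, at the start of a shorter transcript inside the gene, carried a peak in all 4 lists, with scaled depths of 25.9, 3.75, 9.64 and 21.6 in Ctrl replicates 1 and 2 and cKO replicates 1 and 2. The cKO values again lay between the Ctrl values (15.6 ± 8.45 in cKO and 14.8 ± 15.7 in Ctrl, SD, n = 2 each, difference 0.792, two-sided exact permutation test, p = 1.0). The percentiles of 83.6, 91.9, 77.3 and 82.8 put both cKO libraries below both Ctrl libraries (80.1 ± 3.89 against 87.8 ± 5.86, SD, n = 2 each), but the value of Ctrl2 came from the second promoter and those of the other libraries from the first. The Ctrl2 value also lay near the floor of 91.7 that any gene with a peak in that short list reaches. Its height therefore reflects the list and not a strong peak, which ranked 6545 among the 7037 of Ctrl2. The exact permutation test gave p = 0.333, the smallest that 2 against 2 libraries allow, and an adjusted p of 1.0.

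Nkd1 and Nkd2 encode Naked cuticle proteins, which bind Dishevelled and dampen the Wnt signal. The Nkd1 promoter peak at chr8:88521047-88521300 was called in Ctrl1 with a scaled depth of 16.0 and in cKO2 with 8.30. The Nkd2 promoter peak at chr13:73846904-73847724 was called in the same libraries, with scaled depths of 12.9 and 7.75. These genes had the lowest cKO2 to Ctrl1 ratios of the group, at 0.518 and 0.599. The percentiles of Nkd1 were 61.0 and 48.6, and those of Nkd2 were 56.3 and 48.6. Within Nkd1, 51.3 kb from its start, an intronic region held by 3 lists had scaled depths of 12.9 in Ctrl1, 6.75 in cKO1 and 19.4 in cKO2. A second intronic region 56.6 kb from the start had 16.6 in Ctrl1 and 20.5 in cKO2. Of the 6 regions of the Nkd1 locus outside promoters that both libraries held, 3 were deeper in cKO2 (50.0%), against 49.0% of such regions in the series.

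**Figure D3:**
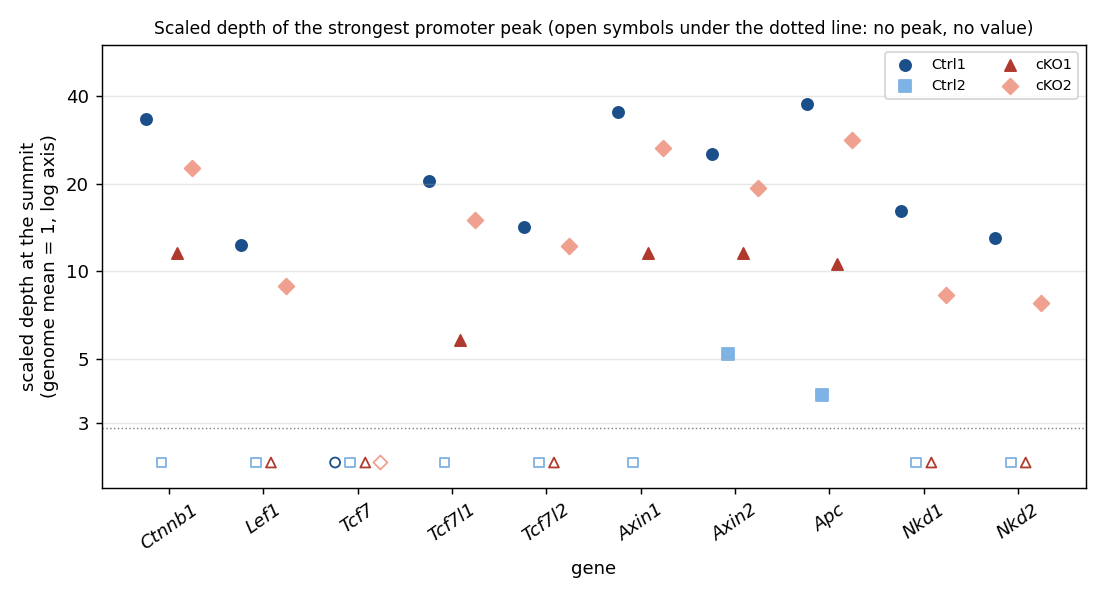
The scaled depth of the strongest promoter peak (y axis, log scale, genome mean = 1) is plotted for each gene (x axis) and library, and open symbols under the dotted line mark libraries without a peak, which have no value. Wherever a cKO library has a peak it lies below Ctrl1, from 37.6 against 28.2 and 10.6 at Apc to 12.3 against 8.86 at Lef1. Most protein-coding genes do the same, as only 0.244% lie above Ctrl1 in cKO1 and 19.9% in cKO2.

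At the same merged region, the scaled promoter depth in cKO2 was below that of Ctrl1 for all 9 components with a peak in both, with a median ratio of 0.735 (0.518 to 0.859). Over 11474 protein-coding genes the median ratio of these libraries was 0.842, with quartiles of 0.730 and 0.964, and 19.9% of the genes were above 1. In cKO1, the 5 components with a peak had a median ratio of 0.329 (0.282 to 0.458) against 0.369 over 8608 genes, with quartiles of 0.317 and 0.437. Of those genes, 0.244% were above 1. The components were thus lower in both cKO libraries, as most genes were, and in cKO2 their median lay at the lower quartile of all genes, with Nkd1 (0.518), Nkd2 (0.599), Ctnnb1 (0.682) and Lef1 (0.718) below it. Ctrl2 was the lowest of all, with a ratio of 0.206 at Axin2 against a median of 0.0957 over 1734 genes.

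By rank, 1 of 5 components stood higher in cKO1 than in Ctrl1 (Axin2, 76.4 against 65.7), where 56.3% of the 8782 genes with a peak in both did. In cKO2, 1 of 9 did (Tcf7l2), against 51.2% of 11826 genes. The mean percentile over the 10 components was 60.6 in Ctrl1, 18.4 in Ctrl2, 37.8 in cKO1 and 57.0 in cKO2. Without Tcf7, which has no peak in any list, it was 67.3, 20.5, 42.0 and 63.3 over 9 components. For the 13196 genes that any list gave a promoter peak, it was 68.5, 13.2, 53.4 and 66.9. The difference of the group means for the components was 7.89 percentile points, far inside the spread of the libraries within each group. It turned to −5.46 with lists of equal size, to −2.93 with mid-ranks for absent peaks, to −13.2 without Ctrl2 and to −1.67 without cKO2.

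With 2 libraries in each group, both cKO values above both Ctrl values was the pattern of 20.5% of the genes tested, and 0 components had it. Both cKO values below both Ctrl values was the pattern of 2.80%, and 1 component, Apc, had it with the reservations given above. The Ctrl2 peak of Apc had a −log10 q-value of 2.04, and with only peaks of at least 5 the difference turned from −7.71 to 38.3, while lists of equal size gave −46.4. The median cKO minus Ctrl difference was −1.30 points for the 9 components with a peak in any list (−0.652 with Tcf7) and 29.5 points for all genes tested. In Ctrl2 most genes are at 0 while Axin2 and Apc are above 91, and in cKO1 Lef1, Tcf7l2, Nkd1 and Nkd2 are at 0. No gene reached significance in the exact permutation test with Benjamini-Hochberg adjustment over the 13196 genes (smallest p = 0.333, smallest adjusted p = 1.0, 0 genes at an unadjusted p under 0.05), as this design cannot go lower.

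The wider loci, taken as each gene body with 50 kb on either side, held 56 peaks in Ctrl1, 4 in Ctrl2, 22 in cKO1 and 58 in cKO2. Per 10000 peaks of each list these were 12.1, 5.68, 10.3 and 13.0. Merging overlapping peaks gave 70 regions, of which 11 were the components' own promoters, 15 were promoters of other genes, 26 lay in introns of the component, 11 between genes and 7 in another gene. The introns of Tcf7l1 and Tcf7l2 held 8 and 7 of these regions, whereas Ctnnb1, Tcf7 and Axin1 had none in their introns. Nkd1 and the genes Tcf7l1, Axin1 and Axin2 had the most peaks for their length in Ctrl1, with 4.61, 3.80, 3.82 and 3.83 per 100 kb against a median of 2.47 over all genes. In cKO1 Nkd1 had 0.576 per 100 kb, below the median of 0.984.

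**Figure D4:**
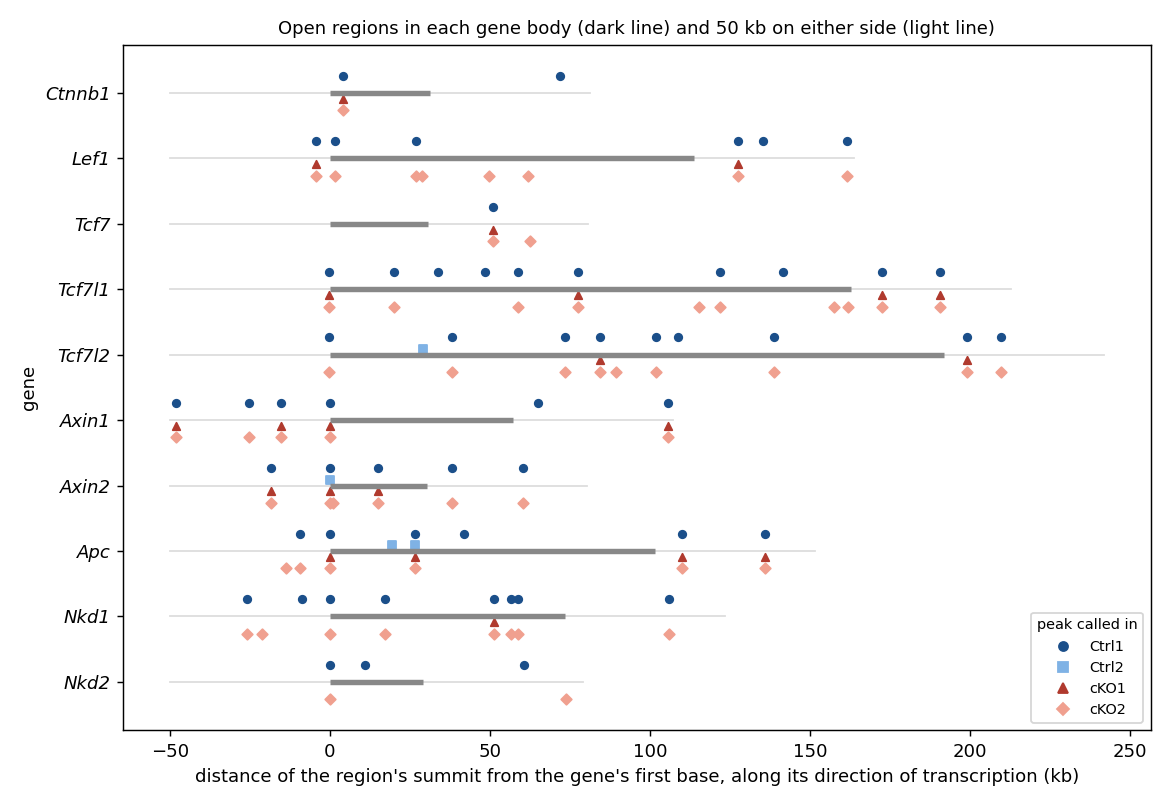
Each symbol is an open region called in one library, placed by the distance of its summit from the first base of the gene along its direction of transcription (x axis, kb) for each gene (y axis). Dark lines are gene bodies and light lines the 50 kb on either side. Ctrl1 and cKO2 share most positions, and Ctrl2 has 4 peaks in all.

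No region of these loci was held by both cKO libraries and neither Ctrl library, a pattern of 0.692% of the 58652 regions of the series, and none by both Ctrl libraries alone, a pattern of 0.305%. Among the 70 regions, 23 (32.9%, against 27.1% of all regions of the series) were held by Ctrl1 and cKO2 and 20 (28.6%, against 25.9%) by these and cKO1. All 4 libraries held 2, the promoters of Axin2 and Apc (2.86%, against 5.56%). A further 12 were in cKO2 only (17.1%, against 14.1%), 11 in Ctrl1 only (15.7%, against 18.8%) and 2 in Ctrl2 only (2.86%, against 2.84%). Regions called in 1 list made up 35.7%, against 36.8% over the whole series. None of the 70 regions followed the genotype in all 4 libraries, and as few regions of the series did, this is not particular to these loci.

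A TCF/LEF core motif occurred in 3 of the 11 own-promoter regions (27.3%), in Lef1, Axin2 and Nkd1, against 5.25% of the 13908 regions of the series at a protein-coding promoter. In Nkd1 the match lay 83 bp before the TSS, at chr8:88521271-88521277. For Lef1 and Nkd1 the match was inside the peak of Ctrl1 but outside that of cKO2, which was chr8:88520992-88521269 at Nkd1. At both genes the searched window was centred on the summit in Ctrl1, and at Nkd1 the match began just past the edge of the cKO2 peak. The Axin2 match, chr11:108920427-108920433, was inside the peaks of Ctrl1 and both cKO libraries but outside that of Ctrl2, chr11:108920454-108920750. Among the 15 regions at promoters of other genes, 2 held the motif (13.3%), against 6.47% of the 16815 regions at a promoter of any gene. Outside the promoters of any gene, 6 of 44 regions (13.6%) held the motif, against 12.6% of 41837 in the series. These are matches of 7 letters in a 300-base window and do not show binding.

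Among 30 other genes of canonical Wnt signal transduction, a promoter peak was present for 28 in Ctrl1, 6 in Ctrl2, 25 in cKO1 and 28 in cKO2. The co-receptor gene Lrp5 and the Wnt deacylase gene Notum had none in any list. Both cKO percentiles were above both Ctrl percentiles for 9 of the 28 with a peak in any list, next to 20.5% over all genes tested, and for none were they below. The 5 with the largest differences were the tankyrase gene Tnks, whose product marks AXIN for degradation, the Groucho co-repressor gene Tle3, the β-catenin partner gene Bcl9, the ubiquitin ligase gene Znrf3 and Cby1, whose product binds β-catenin. Tnks was at 95.7 in Ctrl1, 96.6 in cKO1 and 97.6 in cKO2. Bcl9 was at 82.9, 84.1 and 86.4, and Znrf3 at 75.6, 75.9 and 82.2, in the same order. All 5 were at 0 in Ctrl2, and their differences of the group means, 40.9 to 49.3 points, include that library without a peak.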

How the data were processed

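The members and the gene lists were chosen with earlier results of these data known. According to the methods, reads were trimmed by the authors (cutadapt), aligned to mm10 (Bowtie2), cleared of duplicates, mitochondrial reads and blacklisted regions and shifted for the Tn5 offset, and peaks were called with MACS2 2.2.7.1. The authors deposited 1 list per library, and the methods mention neither a control library nor pooling. Each deposited list gives the authors' fold enrichment (a ratio to local background), −log10 p-value, −log10 q-value and a display score, which was not used. Since lists called separately share no scale, ranks by −log10 p-value within a list were used. The fragment depth was recovered from fold and p-value, and a whole number matched the p-value within 0.01 for 99.9858% of peaks or more in each list. The genome mean of a library was estimated as the lowest background recovered in this way at any of its peaks. TSSs came from GENCODE M21, sequence from GRCm38.p6. Peaks overlapping by at least 1 bp were merged. Values were compared with two-sided exact permutation tests over 6 assignments, after a test on simulated data. All 10 members are named, and pathway genes by a fixed rule (the 5 largest non-overlapping differences). Distal regions in the gene descriptions were picked mainly by how many lists held them, and not all such regions are named. The distal examples under other observations were chosen after their values were seen. Sequencing depth per library was not given in the lists, so precision rests on the recovered depths, which are 18 to 20 fragments at the median summit and carry counting error. Alternatives covered the promoter window, overlap, q-value, list size, repeats, percentile of absent peaks, locus size and each replicate left out. Python 3.11.15, scipy 1.17.1, pandas 2.3.3 and pysam 0.24.0 were used.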

Additional observations from a re-analysis of the deposited data

How the results depend on the processing

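Differences are cKO minus Ctrl. A 1-kb promoter window, any overlap with the promoter and removal of repeat-masked peaks kept the direction of every difference they were run on. Of the count of members with a promoter peak (1.5), a −log10 q-value of at least 5 gave 0.50 and lists cut to 7037 peaks gave −0.50. The mean percentile (7.89) became −5.46 with equal-size lists and −2.93 with genes lacking a peak set to mid-rank. The number of peaks in the loci (10.0) became 2.50 at the stricter q-value, 0 with equal-size lists, 5.50 with 10 kb on either side, 2.77 per 10000 peaks, and 2.43 kb in covered length. For single genes, equal-size lists gave −0.606 for Ctnnb1 (37.4), −46.3 for Axin2 (−8.46) and −46.4 for Apc (−7.71). They gave 0 for Lef1 (−1.30), Tcf7l1 (29.8), Tcf7l2 (0.624), Nkd1 (−6.21) and Nkd2 (−3.85). The stricter q-value gave −1.56 for Tcf7l1, 37.8 for Axin2 and 38.3 for Apc. It also gave −24.9 for Lef1, −30.5 for Nkd1 and −28.2 for Nkd2. Mid-ranks gave −7.37 for Tcf7l2, 14.5 for Ctnnb1, 6.82 for Tcf7l1 and 15.7 for Axin1 (38.6). With mid-ranks Lef1 was at −9.30, Tcf7 (0) at −7.46, Nkd1 at −14.2 and Nkd2 at −11.8.

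Leaving out each library in turn moved the member count from −2.00 to 5.00, the mean percentile from −13.2 to 29.0 and the locus peaks from −16.0 to 36.0. The lowest value came without Ctrl2 and the highest without Ctrl1. The percentile differences ranged from −3.30 to 78.2 (Ctnnb1), −26.2 to 23.6 (Lef1), −4.09 to 63.6 (Tcf7l1), −28.9 to 30.2 (Tcf7l2), −2.55 to 79.8 (Axin1), −21.9 to 4.96 (Axin2), −36.7 to 24.3 (Nkd1) and −32.0 to 24.3 (Nkd2). For Apc they ranged from −11.8 to −3.57. The scaled depth differences ranged from −9.80 to 10.3 at the Axin2 promoter and from −10.3 to 11.9 at the second Apc promoter. The cause was not tested.

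With the replicate number as a replicate block the differences were the same (1.5, 7.89 and 10.0), and the smallest paired p was 0.5, so 0 genes were called. Equal numbers did not deviate together beyond a correlation of 0.0530 across 13196 genes, and the numbers were not taken as pairs. Libraries with fewer peaks limit what can be seen, and an absent peak is not evidence of closed chromatin.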

Other observations

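Ctrl1 and cKO2, the 2 libraries with the most peaks, were compared outside promoters. At the promoters, each of the 9 components with a peak in both had a lower scaled depth in cKO2 than in Ctrl1, as did most protein-coding genes, of which 19.9% were above a ratio of 1. Of the 23 regions of these loci outside promoters that both held, 11 (47.8%) were deeper in cKO2, and the median ratio was 0.973. Over 21414 such regions of the series the share was 49.0% and the median ratio 0.992, so the higher ratios outside promoters were a feature of the whole series. Regions deeper in cKO2 included those 4.4 kb upstream of Lef1 (19.4 against 18.5), 18.5 kb upstream of Axin2 (18.8 against 15.4) and in the Nkd1 intron 51.3 kb from the start (19.4 against 12.9). Regions deeper in Ctrl1 included the intron of Hadh beyond Lef1 (12.3 against 8.86), the Axin2 intron (14.2 against 11.1) and a region upstream of Nkd1 (12.9 against 6.64). In cKO1, 0 of 9 regions were deeper than in Ctrl1, against 13.7% of 10046 over the series. These examples were chosen after their values were seen, and the difference between promoters and other regions was not tested.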
